A study of Mus musculus with 8 samples.

Results

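The collagen genes of the mouse were followed between the ventricular and subventricular zone (V/SVZ), the germinal layer of the embryonic cortex, and the cortical plate (CP), the layer of postmitotic neurons above it. A gene was a member when a RefSeq accession of the array matched a symbol made of Col, a type number, the letter a and a chain number. This took in 42 genes on 61 probes, of 32524 genes on 39429 gene probes in all. RefSeq lists 44 such symbols, and Col6a3 and Col12a1, which no accession of the array matched, are not analysed here. Tissue was dissected by hand from ICR mouse embryos at E16, with 4 samples of V/SVZ and 4 of CP, no genetic change or treatment named for either, and 100 ng of total RNA per sample. Each sample was labelled with Cy3 and read on its own array. The labels do not say whether samples came from separate embryos or from pools, and the p-values reflect sample-to-sample spread alone, part or all of which may be technical.

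Collagens are extracellular proteins built from alpha chains wound into a helix, and each type combines particular chains. Fibrillar collagens form the fibrils of connective tissue, type IV forms the network of basement membranes, and the fibril-associated collagens with interrupted helices (FACIT) sit on fibril surfaces. In the brain, collagens are known from the meninges and from the basement membranes of the pial surface and of blood vessels, and type III collagen is a ligand of the receptor Adgrg1 (Gpr56) in the developing cortex.

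Markers of both layers, with 1 exception, lay where the labels put them in the scanner files. Of 11 measured markers of radial glia, the progenitors of the V/SVZ, 10 were higher in V/SVZ by the test below (35.0% of all genes). The exception, Ptprz1, was 1.44-fold higher in CP without overlap. Pax6 was at least 105-fold higher by its brightest probe. It was 44.6-fold higher with the mean of its probes and 39.4-fold after the normexp background correction described below. All 12 markers of postmitotic neurons were higher in CP (44.6% of all genes), with a median log2 difference of -1.86. The authors' deposited table of processed values ran the other way: each of its columns followed the same-numbered scanner array of the other tissue (r = 1) and not the array it was named for (r from -0.953 to -0.943), so directions here come from the scanner files. On each array 58.4% to 62.9% of gene probes were well above background, by the scanner software's own call. The V/SVZ arrays shared 1 slide and the CP arrays shared another, so slide and tissue cannot be told apart. In bulk tissue, fewer cells of a type and less RNA per cell cannot be told apart either.

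Of the 42 collagen genes, 27 were tested, because a probe exceeded background clearly on each of the 4 arrays of 1 tissue or of both. By limma's moderated test, with p-values adjusted after Benjamini and Hochberg across 19232 genes and called under 0.05, 15 were higher in V/SVZ, 8 were higher in CP and 4 were not called. Over all genes tested, 35.0% were called toward V/SVZ and 44.6% toward CP, or 79.5% in either direction. By probe, 20 of 33 tested collagen probes were called toward V/SVZ (35.2% of all probes) and 9 toward CP (44.4% of all probes). At least 2-fold differences were called for 13 collagen genes toward V/SVZ, where 13.7% of all genes were, and for 5 toward CP, where 16.5% were. The arrays of the tissues did not overlap for 14 collagen genes with V/SVZ above (33.5% of all genes) and for 8 with CP above (41.7% of all genes). The median log2 difference, V/SVZ minus CP, was 0.51 over the tested collagens and -0.09 over all genes, and the median size of the difference was 1.24 against 0.56. The collagen median of 0.51 is the value of Col4a6 by 1 of its 2 probes, and it was 1.04 with the other probe or with the mean of each gene's probes. These counts leave a filter in: 10 of the 27 passed through 1 tissue alone, 7 of them bright on all arrays of V/SVZ only and 3 of CP only, so their calls are not independent of the filter. Col6a1 was the 1 gene of these that was not called. Among the 17 that were well above background on all 8 arrays, 9 were higher in V/SVZ (34.3% of all such genes), 5 were higher in CP (44.3% of all such genes) and 3 were not called, with a median of 0.15 against -0.09.

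**Figure D1:**
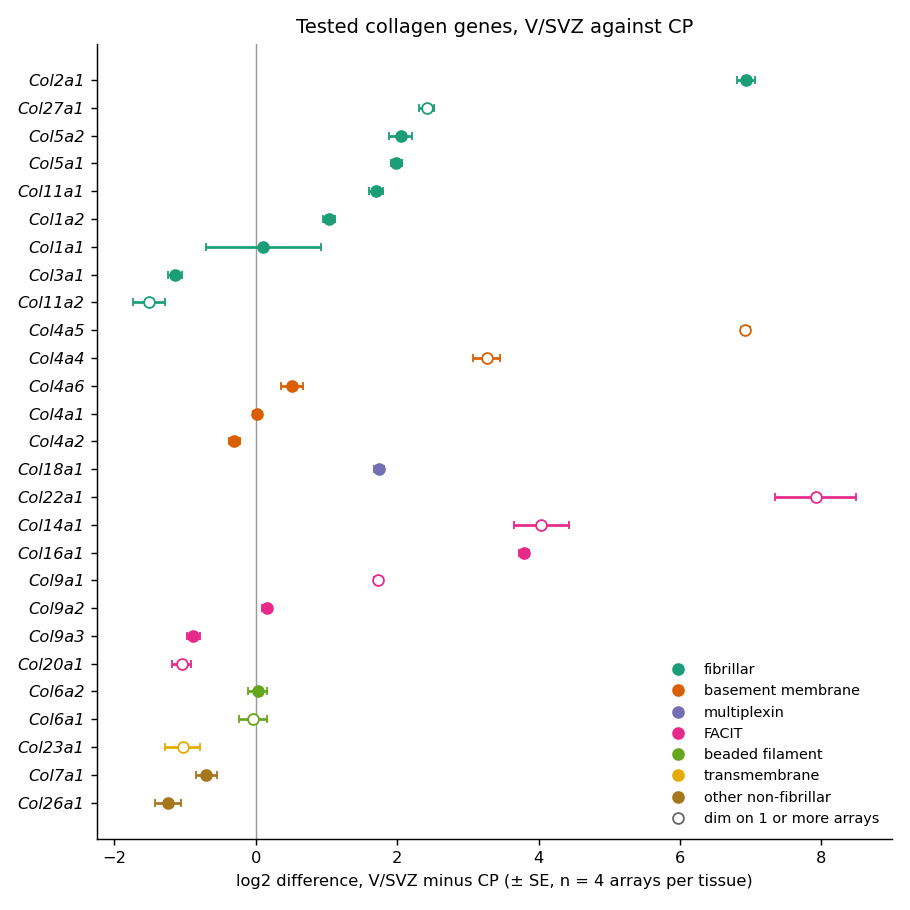
The plot shows the log2 difference of each of the 27 tested collagen genes, V/SVZ minus CP, with its standard error (n = 4 arrays per tissue), coloured by class; open circles mark probes not well above background on 1 or more arrays. Col22a1, Col2a1 and Col4a5 stand farthest to the right, and Col11a2 farthest to the left at -1.51.

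Below, values are the processed signal scaled so that every array has the same 75th percentile, 2335 intensity units. Signals of different probes cannot be set against each other as amounts of RNA, so each probe was compared with itself between tissues. Arrays are given in the order 1 to 4.

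The genes of the basement membrane chains lie in head-to-head pairs, which is why 4 start regions are shown here. The windows of Col4a1 and Col4a2 overlap, those of Col4a5 and Col4a6 do not, and the signals of all 4 genes are given below. The windows run from 250 bases before to 50 bases after the annotated start, 5′ to 3′ on the gene's own strand, as RefSeq gives them for build GRCm38.p6. In Col4a1 (chr8:11312777-11313076, minus strand) and Col4a2 (chr8:11312555-11312854, plus strand), the capitals mark the 78 bases that both windows hold, read on opposite strands.
Col4a1: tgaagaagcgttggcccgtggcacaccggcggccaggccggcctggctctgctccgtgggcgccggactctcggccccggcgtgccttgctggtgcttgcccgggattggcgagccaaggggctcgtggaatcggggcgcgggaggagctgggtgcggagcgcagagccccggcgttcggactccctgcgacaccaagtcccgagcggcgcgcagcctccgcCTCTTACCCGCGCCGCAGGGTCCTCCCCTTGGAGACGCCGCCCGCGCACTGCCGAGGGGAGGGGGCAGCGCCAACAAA
Col4a2: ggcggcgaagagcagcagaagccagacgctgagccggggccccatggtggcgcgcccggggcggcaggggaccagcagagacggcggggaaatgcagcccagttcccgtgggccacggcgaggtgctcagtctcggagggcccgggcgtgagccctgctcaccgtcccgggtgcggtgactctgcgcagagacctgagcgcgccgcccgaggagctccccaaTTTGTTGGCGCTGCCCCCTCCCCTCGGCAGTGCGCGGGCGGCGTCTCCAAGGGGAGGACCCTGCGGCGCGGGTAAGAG
In Col4a5 (chrX:141475169-141475468, plus strand) and Col4a6 (chrX:141474027-141474326, minus strand), whose starts are 1343 bases apart, the capitals mark the GC box GGGCGG or its reverse complement CCGCCC.
Col4a5: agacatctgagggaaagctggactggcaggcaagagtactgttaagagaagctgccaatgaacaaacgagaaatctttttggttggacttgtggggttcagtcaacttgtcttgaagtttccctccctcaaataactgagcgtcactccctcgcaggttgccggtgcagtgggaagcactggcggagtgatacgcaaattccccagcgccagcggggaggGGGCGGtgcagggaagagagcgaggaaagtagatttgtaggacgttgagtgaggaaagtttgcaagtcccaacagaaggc
Col4a6: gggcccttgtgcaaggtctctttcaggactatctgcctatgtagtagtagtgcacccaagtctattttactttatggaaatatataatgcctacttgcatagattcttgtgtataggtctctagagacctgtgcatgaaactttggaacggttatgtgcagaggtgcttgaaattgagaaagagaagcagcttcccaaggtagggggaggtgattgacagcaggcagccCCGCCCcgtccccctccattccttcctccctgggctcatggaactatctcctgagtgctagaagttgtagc
Of the 42 collagen genes on the array, 34 had an entry in the promoter table, and Col14a1, Col1a1, Col22a1, Col26a1, Col2a1, Col4a3, Col5a2 and Col9a3 did not. The table holds 38 windows of 35 collagen genes, the 34 on the array among them, some genes having several. A GC box in the bases that the Col4a1 and Col4a2 windows share counts in both. On either strand, GGGCGG was in 60.5% of these windows and in 35.7% of the 32851 windows of all genes. CCAAT was in 34.2% against 37.4%, TATAAA in 13.2% against 13.6%, and ACAAAG, a core bound by Sox factors, in 13.2% against 18.7%. A match describes the letters of the window and is not evidence of a bound factor.

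The 2 chains of the common basement membrane network, Col4a1 and Col4a2, gave almost the same signal in both layers, whereas Col4a4 and Col4a5 were far higher in V/SVZ. Of 5 tested type IV genes, 3 were called toward V/SVZ (35.0% of all genes), 1 toward CP (44.6%) and 1 was not called. Their median log2 difference was 0.51, the value of Col4a6 by its first probe, and 3.26 with its other probe or 2.43 with the mean of each gene's probes, against -0.09 over all genes.

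Col4a1 read 2764, 2776, 2629.8 and 2969 in V/SVZ and 2642, 2668, 2911 and 2830.2 in CP. The ranges overlapped, and the log2 difference was 0.01 ± 0.05 (SE, n = 4 per tissue, limma adjusted p = 0.848). Col4a2 read 2295, 2503, 2589 and 2967 in V/SVZ and 3019, 3076, 3341 and 3303 in CP, and these ranges only just parted. The difference of -0.30 ± 0.08 was called (limma adjusted p = 0.00833), but not when arrays were scaled to their median (-0.22, adjusted p = 0.0852). Within each array the Col4a1 to Col4a2 ratio was higher in V/SVZ by 0.315 on the log2 scale, with every V/SVZ array above every CP array.

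Col4a5, a chain of the kidney and lung basement membranes that is also made in other tissues, read 1394, 1150.2, 1213 and 1179.6 in V/SVZ. In CP it read 10, 9.8, 10.3 and 10.6, and no CP array was well above background. Every V/SVZ array was therefore far above every CP array, at least 27.4-fold (limma adjusted p = 3.43e-10). Such a bound sets the mean of the bright tissue against the dim probe's signal on each array, or against the faintest probe still well above background there where that is higher. After normexp, which corrects raw spot signals for local background and adds an offset of 50, the fold was 14.2, under that bound.

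Its head-to-head partner Col4a6 had 2 probes that disagreed in size. The probe with the higher mean of log2 signals, which stands for the gene in the counts above, read 323, 197, 197 and 202 in V/SVZ and 152, 166, 154 and 159 in CP, a 1.42-fold difference (limma adjusted p = 0.0185). One V/SVZ array stood above the rest, and the tissues still did not overlap. The other probe read 1101, 963, 923 and 1009 in V/SVZ and 11.8, 11.8, 9.8 and 12.7 in CP, where no array was well above background. This probe gave at least 22.2-fold (limma adjusted p = 5.38e-10), and the mean of both probes gave 11.2-fold. The other probe has the higher mean on the linear scale. No ratio of Col4a5 to Col4a6 is given, because Col4a5 and this other probe were at background in CP. The series does not say which transcripts each probe reads.

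Col4a4, a chain of the network of kidney and eye basement membranes, read 483, 502, 478 and 485 in V/SVZ and 33.6, 50.4, 63.9 and 60.9 in CP, where 1 of 4 arrays was well above background. V/SVZ was 9.61-fold higher without overlap (limma adjusted p = 1.03e-06), and 4.03-fold higher after normexp. Its second tested probe read 158, 151, 125 and 173 in V/SVZ and 110.3, 37.2, 41.9 and 36.6 in CP and gave 3.01-fold (limma adjusted p = 0.00331). Of its 4 CP arrays, the first was nearly as high as the lowest V/SVZ array. The mean of both probes gave 5.39-fold. Col4a3, the usual partner of Col4a4, did not exceed background clearly on any array.

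Col18a1, a heparan sulfate carrying basement membrane collagen and the source of endostatin, read 3566, 3521, 3286 and 3441 in V/SVZ. In CP it read 995, 903, 1119 and 1125, all below the V/SVZ arrays. The fold was 3.35 (limma adjusted p = 1.78e-07), and the second probe gave a log2 difference of 1.39 against 1.74. Col15a1, the other member of that class, did not exceed background clearly on any array with any of its 3 probes.

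Values of vascular markers stand beside these basement membrane genes. Of 19 endothelial markers, 7 were called toward V/SVZ (35.0% of all genes), 5 toward CP (44.6%) and 7 were not called. Their median log2 difference was 0.06. Their summed signal was 52960 to 56328 in V/SVZ and 36504 to 40086 in CP. Such sums, here and for other cell types below, are weighted toward the brightest probes and are not amounts of RNA. Bright markers were Slc2a1 and Mfsd2a, 1.98-fold and 2.29-fold higher in V/SVZ, and Egfl7, 1.09-fold higher in CP. Cldn5, a tight junction protein of brain endothelium, differed 1.21-fold, while Slco1c1, a thyroid hormone transporter of brain endothelium, was 8.05-fold higher in V/SVZ. Of 11 tested pericyte and smooth muscle markers, 5 were called toward V/SVZ (35.0% of all genes), 1 toward CP (44.6%) and 5 neither way. Their median was 0.18, with summed signals of 15683 to 17061 in V/SVZ and 8426 to 9920 in CP. In these sums Notch3 alone read 6296, 6174, 5766 and 5973 in V/SVZ and 683, 671, 655 and 649 in CP. The pericyte receptor Pdgfrb differed 1.90-fold and Notch3, which radial glia also express, 9.11-fold. The part of these cells in the collagen values was not tested.

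**Figure D2:**
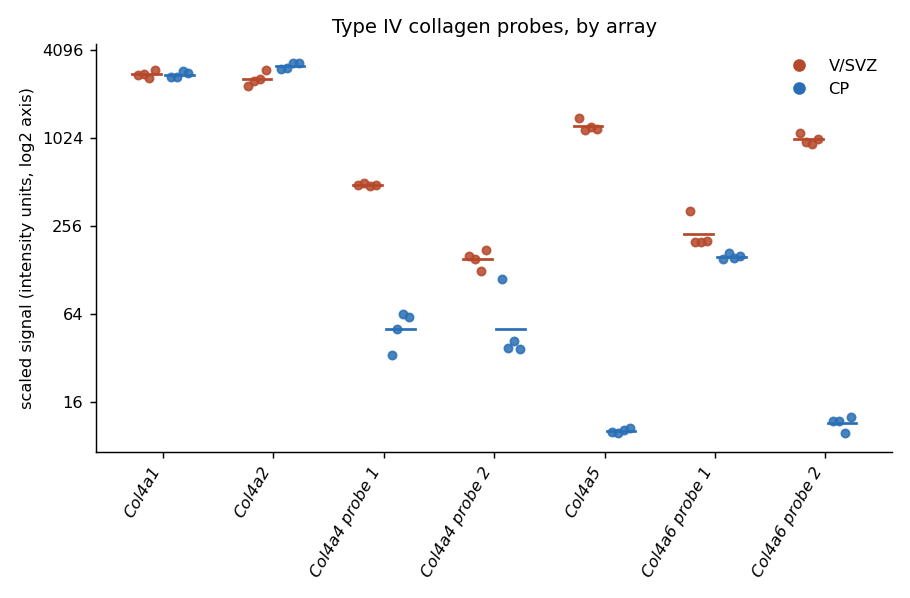
Scaled signal of every tested type IV probe on each array (log2 axis, intensity units); points are arrays and bars are means on the log scale, 4 arrays per tissue. Col4a1 and Col4a2 lie level, Col4a5 and the second Col4a6 probe drop to about 10 units in CP, and the first Col4a6 probe stays between 152 and 166 units there.

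Of 9 tested fibrillar collagens, 6 were called toward V/SVZ (35.0% of all genes), 2 toward CP (44.6%) and 1 was not called. The median log2 difference was 1.70. Col2a1 led in V/SVZ, and Col3a1 and Col11a2 were the ones higher in CP. Col5a3 and Col24a1 were not tested, Col24a1 being well above background on no array and Col5a3 on 3 of the 4 V/SVZ arrays and no CP array.

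Col2a1, the main fibril collagen of cartilage, read 11602, 11741, 10226 and 10708 in V/SVZ. Its CP signal was 106, 87.9, 101 and 70.3, above background on all 4 arrays. The layers lay far apart at 123-fold (limma adjusted p = 1.77e-09), or 58.1-fold after normexp. Col11a1, which joins type II in cartilage fibrils, read 1223, 1129, 1139 and 954 in V/SVZ and 384, 362, 329 and 296 in CP. It too was higher on every V/SVZ array, 3.24-fold (limma adjusted p = 1.30e-06).

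Col11a2, another chain of type XI, went the opposite way. It read 46.2, 68.6, 77 and 70.3 in V/SVZ, where 3 of 4 arrays were well above background, and 124, 224, 193 and 209.7 in CP. All CP arrays were above all V/SVZ arrays, 2.84-fold (limma adjusted p = 3.83e-04), and 1.83-fold after normexp. The Col11a1 to Col11a2 ratio within an array was thus 3.20 higher in V/SVZ on the log2 scale, with every V/SVZ array above every CP array.

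The type V chains, which start fibrils and set their width, moved together. Col5a1 read 545, 526, 548 and 565 in V/SVZ and 124, 128, 148 and 152 in CP, 3.97-fold higher in V/SVZ (limma adjusted p = 6.10e-08). Col5a2 read 298, 327, 312 and 285 in V/SVZ and 55.9, 97.8, 66.1 and 81 in CP, 4.15-fold higher in V/SVZ (limma adjusted p = 7.12e-06) and 2.40-fold after normexp. Neither gene overlapped between tissues. The ratio of the 2 chains changed by -0.064 on the log2 scale (exact permutation p = 0.8).

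Col27a1, a short fibrillar collagen of cartilage and other developing tissues, was dim in both layers, with 71.7, 70.9, 77.7 and 73.4 in V/SVZ and 11.7, 15.9, 15.3 and 12.5 in CP. No CP array was well above background, so V/SVZ was at least 1.64-fold higher (limma adjusted p = 1.58e-07), and 1.38-fold after normexp. The 4 V/SVZ arrays were close to each other and above every CP array.

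For type I collagen, the main fibril of connective tissue and of the meninges, the chains differed in what could be called. Col1a2 read 846, 1070.3, 848 and 1006 in V/SVZ and 480.0, 451, 422 and 477 in CP, without overlap and 2.05-fold higher in V/SVZ (limma adjusted p = 1.25e-05). Col1a1 read 722, 742, 116 and 727 in V/SVZ and 662, 633, 116 and 699 in CP. Array 3 of each tissue was over 4-fold below the other 3, and the difference of 0.10 ± 0.81 was not called (limma adjusted p = 0.910). Without array 3 of both tissues, a choice made after seeing the values, the difference was 0.14 ± 0.05 (adjusted p = 0.0433). Leaving out only V/SVZ 3 gave 0.77 and leaving out only CP 3 gave -0.53, neither called. Of 23808 probes with a value on every array, only this one and a probe of Rbbp9, a hydrolase gene, were over 4-fold low on array 3 of both tissues. The scanner headers place same-numbered arrays at the same position of their slides.

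Col3a1, the reticular fibre collagen that Adgrg1 binds, read 139, 174, 142 and 141 in V/SVZ. CP gave 365, 297, 345 and 307, and even its lowest array was above the highest V/SVZ array. CP was 2.20-fold higher (limma adjusted p = 1.10e-05). Its receptor gene Adgrg1 was higher in the other layer, 5.61-fold in V/SVZ (limma adjusted p = 1.09e-08).

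Markers of meningeal fibroblasts, the main makers of types I and III around the brain, stand beside these values. Of 23 listed, 12 were tested. Of these, 6 were called toward V/SVZ (35.0% of all genes), 2 toward CP (44.6%) and 4 were not called. Their median log2 difference was 1.80. Their summed signals, weighted toward the brightest probes, were 10640 to 11461 in V/SVZ and 2709 to 2964 in CP. Foxc1, a defining factor of the meninges, was not called (0.06 ± 0.07, limma adjusted p = 0.419), nor was the proteoglycan gene Dcn (-0.44 ± 0.22, limma adjusted p = 0.102) except after normexp (-0.51, adjusted p = 0.021). Lum, a keratan sulfate proteoglycan of collagen fibrils, was at least 4.24-fold higher in CP, and Ogn, of the same family, at least 18.6-fold higher in V/SVZ (3.61-fold and 8.63-fold after normexp). The other 5 markers higher in V/SVZ were Ptgds (48.7-fold, 18.6-fold after normexp), Prrx2 (31.4-fold, 12.5-fold after normexp), S100a6 (14.2-fold, 7.71-fold after normexp), Slc13a3 (11.1-fold, 7.75-fold after normexp) and Cyp1b1 (at least 2.76-fold, 2.17-fold after normexp). Crabp2 was also higher in CP, 1.22-fold without overlap, and Igf2 and Pdgfra were not called. These further markers are named here after their values were seen. The 11 not tested included the defining genes Foxc2, Foxd1, Tbx18, Aldh1a2, Slc6a13 and Twist1. What part these cells had in the collagen signals was not tested.

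Of the 7 FACIT collagens tested, 5 were called toward V/SVZ and 2 toward CP, where 79.5% of all genes were called in either direction. Their median log2 difference was 1.72. Col22a1 had the largest difference of any collagen gene, and Col14a1 and Col16a1 also differed widely. Col19a1 did not exceed background clearly on any array.

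Col22a1, known from tissue junctions such as that of muscle and tendon, read 12069, 11508, 10898 and 12399 in V/SVZ. In CP it read 21.8, 31.4, 169 and 47.1, and only the third CP array was well above background. The V/SVZ arrays were tightly grouped while the CP arrays spread (log2 SD 0.08 and 1.29). V/SVZ was 242-fold higher (log2 difference 7.92 ± 0.57, limma adjusted p = 3.96e-06). The size rested on the dim CP signals: the fold was 367 without CP 3, 377 without array 3 of both tissues and 82.1 after normexp.

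Col16a1, a minor fibril-associated collagen, read 3979, 4111, 4131 and 3919.5 in V/SVZ and 269, 335, 273 and 289.8 in CP. It was bright on all 8 arrays and 13.9-fold higher in V/SVZ (limma adjusted p = 1.83e-09), with 8.94-fold after normexp. A second probe, at 581, 536, 522 and 504 in V/SVZ and 45, 53.3, 52.5 and 46.1 in CP, gave a log2 difference of 3.45 against 3.79. The 2 probes thus put the layers a similar distance apart.

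Col14a1, which binds fibril surfaces in skin and tendon, read 454, 564, 400.4 and 430.4 in V/SVZ. CP gave 36.7, 34.7, 40.7 and 11.6, with no array well above background and the fourth lowest. V/SVZ was at least 10.1-fold higher (limma adjusted p = 2.43e-05), and 4.79-fold after normexp. A second probe read 66.4, 68.8, 158 and 68 in V/SVZ and 19.9, 29.3, 33.2 and 35.9 in CP. There the third V/SVZ array was the highest, and the bound was 1.87-fold (limma adjusted p = 0.00239). The mean of both probes gave 6.92-fold.

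The chains of type IX, which coats type II fibrils in cartilage and combines different chains, did not move as a unit. Col9a1 read 145, 144, 130.1 and 141 in V/SVZ and 44.7, 42.7, 43.5 and 39 in CP, where 1 of 4 arrays was well above background. V/SVZ was 3.30-fold higher without overlap (limma adjusted p = 3.12e-08), and 1.67-fold higher after normexp. Col9a2 read 549, 534, 465 and 515 in V/SVZ and 465, 462, 484 and 442 in CP, and its ranges overlapped. Its difference of 0.15 ± 0.06 was called (limma adjusted p = 0.0407) but lost the call in 10 of the alternatives, among them leaving out V/SVZ 1, 2 or 4 or CP 1, 2 or 4, with adjusted p from 0.0541 to 0.103. Col9a3 read 145, 149, 147 and 141 in V/SVZ and 258, 312, 229.6 and 281 in CP, 1.84-fold higher in CP (limma adjusted p = 3.13e-05). Every V/SVZ array of Col9a3 was below every CP array, the reverse of Col9a1. A second Col9a1 probe did not exceed background clearly on any array.

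Col20a1, a little-studied FACIT collagen, read 49.9, 61, 46.9 and 58.1 in V/SVZ, with 3 of 4 arrays well above background, and 103, 141, 104 and 101 in CP. CP was higher without overlap, 2.07-fold (limma adjusted p = 1.31e-04). Its second probe gave a log2 difference of -1.27 against -1.05.

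**Figure D3:**
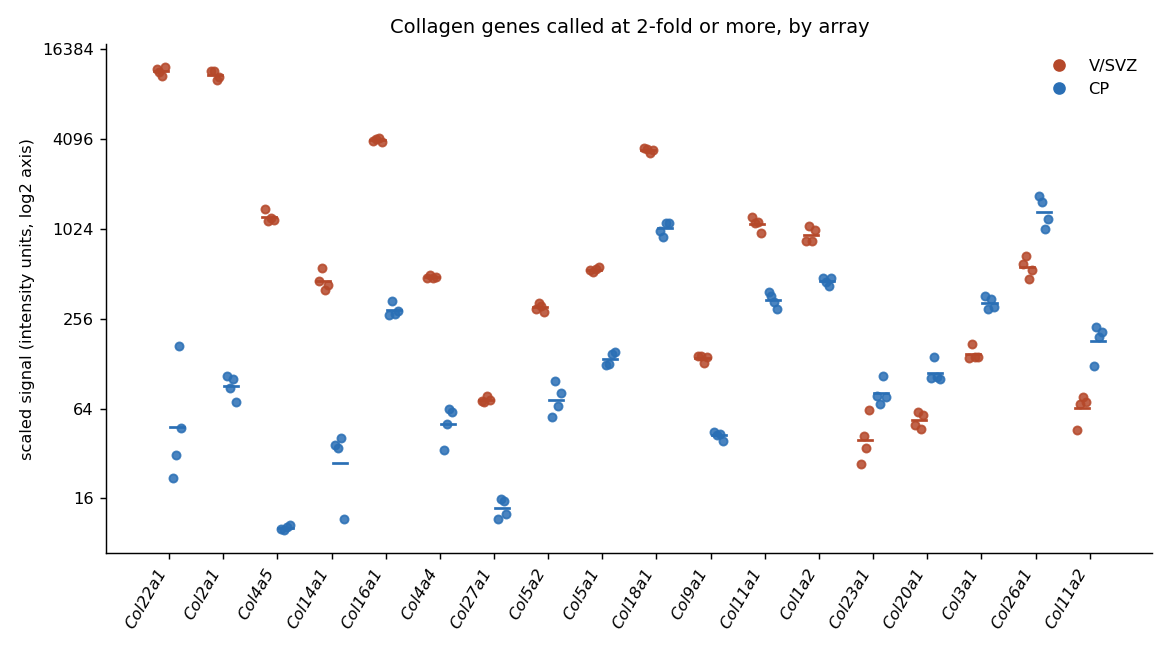
Scaled signal on each of the 8 arrays (log2 axis, intensity units) for the 18 collagen genes called at 2-fold or more; points are arrays, bars are means on the log scale, 4 arrays per tissue. No gene of the 18 overlaps between tissues, which choosing genes by call and size favours. The CP arrays of Col22a1 and Col14a1 spread most.

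The chain-to-chain comparisons were put together as the log2 ratio of probes within each array, which removes any scaling between arrays. For 10 probe pairs of 6 collagen types, the ratio was compared between tissues with a two-sided exact permutation test over 70 splits of the 8 arrays, whose smallest p is 0.0286. The 2 pairs with Col4a5 are not read, because Col4a5 was at background in CP. Col4a1 with Col4a2, the 3 pairs of type IX, and Col11a1 with Col11a2 reached that p. It was 0.0408 after Benjamini-Hochberg adjustment over the 10, which counts the 2 unread pairs. The type IX shifts in log2 ratio were 1.569 for Col9a1 to Col9a2, 2.604 for Col9a1 to Col9a3 and 1.035 for Col9a2 to Col9a3. Any 1 of these 3 shifts follows from the other 2. The first 2 of these rest on Col9a1, which was well above background on 1 of 4 CP arrays, and their sizes are not firmly measured. Col11a2 was well above background on 3 of 4 V/SVZ arrays. Col9a1 passed the filter through V/SVZ alone and Col11a2 through CP alone, so the p-values of their pairs are not independent of the filter. The test did not pass for Col5a1 with Col5a2, for Col6a1 with Col6a2 (-0.068, exact p = 0.743) or for Col1a2 with Col1a1 (0.933, exact p = 0.371). In the last pair, array 3 of each tissue lay far off, and without these arrays the shift was 0.910 at the smallest p that 3 against 3 arrays allow, 0.100. Between same-numbered arrays, a comparison added after the values were seen, the Col1a2 to Col1a1 ratio was higher in V/SVZ by 0.691, 1.019, 1.001 and 1.021 for numbers 1 to 4. A p that misses the threshold does not show that chains kept their proportion.

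**Figure D4:**
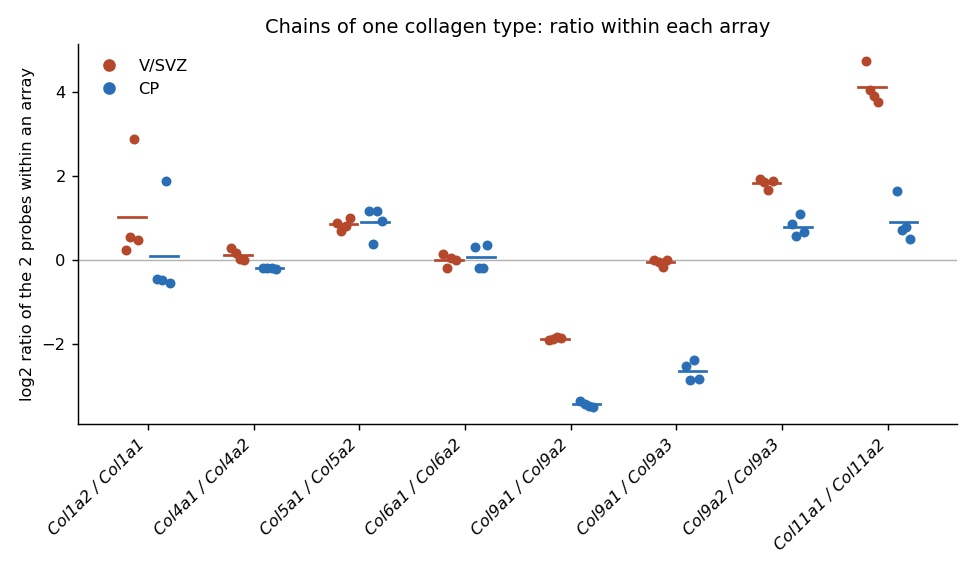
Log2 ratio of the 2 probes named under each column, within each array; points are arrays and bars are means, 4 arrays per tissue. Pairs with Col4a5 are left out. The tissues part completely for the Col4a1 to Col4a2, type IX and type XI pairs, while the third arrays stand off in the Col1a2 to Col1a1 pair.

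Of the remaining non-fibrillar collagens tested, 3 were called toward CP (44.6% of all genes) and 2 were not called. Col26a1, a secreted protein with short collagen stretches, was among the 3 brightest collagen probes of CP together with Col4a1 and Col4a2. It read 593, 675, 470.0 and 539 in V/SVZ and 1706, 1542, 1015 and 1198 in CP, 2.37-fold higher in CP without overlap (limma adjusted p = 3.28e-04). Col7a1, the anchoring fibril collagen of skin, read 365, 357, 435 and 307 in V/SVZ and 473, 722, 585 and 606 in CP, 1.62-fold higher in CP (limma adjusted p = 0.00253). All 4 CP arrays of both genes were above the V/SVZ arrays.

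Col23a1, a transmembrane collagen, read 27.3, 41.7, 34.9 and 62.3 in V/SVZ, with 2 of 4 arrays well above background, and 78.2, 69.2, 106 and 76.1 in CP. It was 2.05-fold higher in CP (limma adjusted p = 0.00581) without overlap, while a further probe, on 6 of 8 arrays well above background, was not tested and overlapped. The other transmembrane members, Col13a1, Col17a1 and Col25a1, were not tested. Col25a1, a collagen of neurons, was well above background on 3 V/SVZ arrays with one probe and on 1 V/SVZ and 2 CP arrays with another.

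The beaded filament chains Col6a1 and Col6a2, found around vessels and fibroblasts, were dim in both layers. Col6a1 read 67.3, 41.7, 55.9 and 68.6 in V/SVZ and 65.1, 44.5, 61.1 and 68.5 in CP, and Col6a2 read 61.1, 47.6, 54.5 and 68.6 in V/SVZ and 52.9, 51.1, 69.8 and 53.7 in CP. Both overlapped, with differences of -0.04 ± 0.19 and 0.03 ± 0.14 that were not called (limma adjusted p = 0.848 and 0.874). After normexp Col6a1 was called toward CP (-0.28, adjusted p = 0.0286). Col6a4, Col6a5 and Col6a6 were not tested.

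In all, 15 collagen genes were not tested, and for 10 of them no probe was well above background on any array. Of the 23 probes of these 15 genes, 17 were never well above background, with signals between 5.2 and 25.8 units. Beside those named above, the untested genes were Col8a1, Col8a2, Col10a1 and Col28a1. Single arrays stood out for Col10a1 (84.6 on V/SVZ 1), Col8a2 (168 on CP 4) and Col6a6 (142 on CP 2), with the remaining arrays of those probes at 18.0 or less. For the 10 genes with no probe well above background on any array, the signals do not show that they are absent.

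The genes that make, cut and bind collagen were followed from lists. Over these lists and the regulators below, 56 of 69 tested genes were called, where 79.5% of all genes were. Of 20 tested modifying enzymes and chaperones, 11 were called toward V/SVZ (35.0% of all genes), 7 toward CP (44.6%) and 2 were not called. Their median log2 difference was 0.65 against -0.09 over all genes. Serpinh1, the collagen chaperone Hsp47, was 4.95-fold higher in V/SVZ, Crtap, a part of the prolyl 3-hydroxylase complex, 7.46-fold, and Fkbp14, a prolyl isomerase of the endoplasmic reticulum, 10.9-fold. P3h1, the enzyme that works with Crtap, was 2.66-fold higher in CP by its brightest probe and 1.45-fold by the mean of its probes.

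Of 8 genes for processing procollagen ends, 2 were called toward V/SVZ (35.0% of all genes), 4 toward CP (44.6%) and 2 were not called. The median was -0.17. The N-proteinase genes Adamts3 and Adamts14 were 8.09-fold and 3.74-fold higher in CP, and the C-proteinase enhancer Pcolce2 was 4.76-fold higher in V/SVZ. These folds were 5.13, 2.41 and 2.62 after normexp. The other N-proteinase gene of the list, Adamts2, went the opposite way, 2.22-fold higher in V/SVZ without overlap (limma adjusted p = 0.00168).

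Of 8 collagen receptor genes, 5 were called toward V/SVZ (35.0% of all genes), none toward CP (44.6%) and 3 were not called. The median was 1.18. Adgrg1 was described above. Ddr1, a collagen-activated tyrosine kinase, was 3.41-fold higher, and Mrc2, which takes up collagen fragments, at least 8.54-fold (3.66-fold after normexp).

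Of 12 collagenases, gelatinases and their inhibitors, 7 were called toward V/SVZ (35.0% of all genes), 4 toward CP (44.6%) and 1 was not called. The median was 0.40. The membrane proteases split by layer: Mmp14 was 4.83-fold higher in V/SVZ, while Mmp24 was 2.47-fold and Mmp16 2.98-fold higher in CP (1.85-fold for Mmp16 after normexp). Of 15 matrix partners, 5 were called toward V/SVZ (35.0% of all genes), 5 toward CP (44.6%) and 5 were not called. The median was -0.04. Sparc, a collagen-binding matricellular protein, was 2.52-fold higher in V/SVZ.

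The SoxE and chondrogenic regulators were listed because Sox9 drives Col2a1, Col9a1 and Col11a2 in cartilage. Of 6 tested, 4 were called toward V/SVZ (35.0% of all genes) and 2 toward CP (44.6%), with a median of 2.81. Sox9 was 29.5-fold higher in V/SVZ (19.2-fold after normexp) and Sox8 at least 27.1-fold (11.2-fold after normexp). Nfatc1, a calcium-regulated factor, was 9.31-fold higher (3.43-fold after normexp), with 1 of 4 CP arrays well above background. Sox5, a partner of Sox9 in cartilage, was 3.79-fold higher in CP, while Sox6, its other partner there, was 5.26-fold higher in V/SVZ. Scx, also on the list, was 3.10-fold higher in CP. Among the cartilage targets named here, Col9a1 and Col2a1 were higher in V/SVZ and Col11a2 was higher in CP. The other chains of types IX and XI, Col11a1, Col9a2 and Col9a3, had log2 differences of 1.70, 0.15 and -0.88. Whether Sox9 has a part in these differences was not tested. All these values come from the same comparison of the same arrays.

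**Figure D5:**
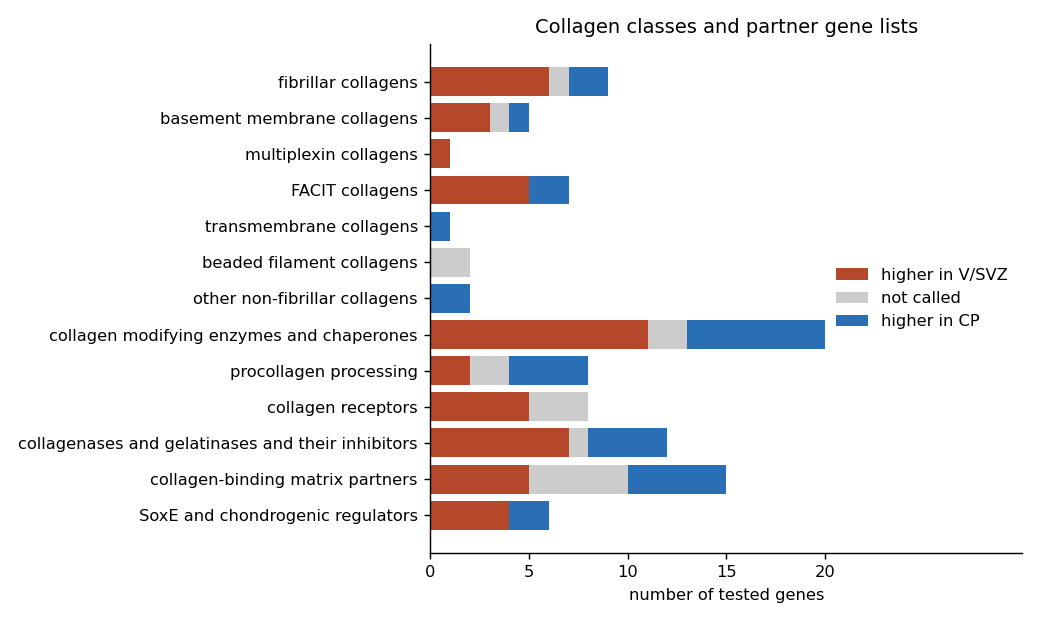
Bars count the tested genes of each collagen class and partner list that were called higher in V/SVZ, not called, or called higher in CP by limma at an adjusted p under 0.05. The receptor bar has no CP part, the bar of matrix partners splits into 5, 5 and 5, and the beaded filament bar holds no call.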

How the data were processed

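Total RNA of both layers at E16 was amplified with a low-input kit, labelled with Cy3 and hybridised to 1-colour arrays from Agilent, as the labels' protocols state. Per the file headers, Agilent Feature Extraction 10.7.1.1 made the deposited intensity values: a background-subtracted, detrended processed signal per spot, and raw spot and local background signals. A normalization between arrays is not given in the sources used here. A further table that the authors deposited holds log2 values (17185 rows, 17163 gene probes); its base was inferred from the scanner arrays, its column medians ran from -0.034 to 0.017, and its filter and scaling are unknown. It served as an alternative, after turning its direction to that of the scanner files. Unmapped columns of per-sample values numbered 0.

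Samples were grouped by their titles. Signals of repeated spots were averaged, leaving out control spots and outlier spots (142 to 258 per array); 0 gene spots were saturated. Values are log2 of the processed signal minus each array's 75th percentile. Testing needed a probe well above background on all 4 arrays of either tissue and measured on 3 or more arrays of each (23860 of 39429 probes). Accessions were matched to symbols through RefSeq (GRCm38.p6), naming 26761 probes and leaving 12668 unnamed. The headers name build mm9, so no probe or gene coordinates are given; those of the 4 promoter windows are RefSeq's, on GRCm38.p6. Each gene takes the values of its tested probe with the highest mean log2 signal. Differences were fitted in R 4.3.3 with limma 3.58.1 (lmFit, then eBayes) on 4 arrays against 4, with Benjamini-Hochberg adjustment over 19232 genes, or over 23860 probes for second probes. The code was tested on simulated data. Number of arrays and signal over background limit the precision. Array correlations were 0.992 to 0.995 within V/SVZ, 0.996 to 0.997 within CP and 0.880 to 0.897 between.

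Members and lists were chosen with earlier results of these data known. Every collagen gene with a probe is named; array values are given for genes called at 2-fold or more, for the 3 brightest of each tissue and where probes or chains were compared; partner genes are the largest called differences and defining members of each list. Alternatives were quantile, median and spike-in scaling, normexp, filters on dim probes, the mean of probes, variance models, array weights, the replicate block, the deposited table and leaving out each array.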

Additional observations from a re-analysis of the deposited data

Results flagged for a closer look

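Single arrays far from the other 3 of their tissue, by Dixon's ratio above its 95% critical value for 4 samples, were found in 16 of 188 groups examined (8.51%); chance gives about 1 in 20. Array CP 3 held 4 of them and V/SVZ 4 none (0). Col1a1 was low on array 3 of both tissues, at 116.2 units in V/SVZ (the others 722 to 742) and 115.7 in CP (the others 633 to 699).

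Among called collagens, Col14a1 was low on CP 4 (11.6, against 34.7 to 40.7) and its second probe high on V/SVZ 3 (157.7, against 66.4 to 68.8). Col4a6 was high on V/SVZ 1 (323.0, against 196.9 to 201.7), as was the second Col18a1 probe (2158.6, against 1847 to 1894). The second Col4a4 probe was high on CP 1 (110.3, against 36.6 to 41.9). Col3a1 was high on V/SVZ 2 (174.3, against 139.3 to 141.5) and Col20a1 on CP 2 (140.7, against 100.6 to 103.9).

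Among collagens that were not called or not tested, Col6a2 was high on CP 3 (69.8, against 51.1 to 53.7), Col25a1 on CP 3 (30, against 14.9 to 16.7), Col8a2 on CP 4 (167.7, against 8.8 to 10.5) and Col10a1 on V/SVZ 1 (84.6, against 5.2 to 7.1). Of the other genes, Adamts3 was high on CP 1 (715.5, against 670.2 to 675.8), the choroid plexus marker Aqp1 on CP 3 (95.4, against 70.9 to 73.6) and the neuronal factor Tbr1 on V/SVZ 2 (37402.9, against 33819 to 34166).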

How the results depend on the processing

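No called collagen gene or named partner gene changed direction under any alternative that gave it a value. Of 525 values of collagen genes under alternatives, 512 stayed called in the same direction or stayed not called. Of the rest, 11 lost the call and 2 gained it. The losses were Col9a2 in 10 settings and Col4a2 under median scaling (-0.22); the gains were Col1a1 without array 3 of both tissues and Col6a1 after normexp. The 4 genes that were not called did not keep their sign. They ranged from -0.53 to 0.77 (Col1a1), -0.02 to 0.10 (Col4a1), -0.35 to 0.13 (Col6a1) and -0.14 to 0.20 (Col6a2).

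The counts of called collagens moved with the filter, which also changed how many genes were tested. Toward V/SVZ, 9 of 17 genes and 10 of 18 probes were called when all 8 arrays had to be well above background. Toward CP, these were 5 genes and 5 probes. Over all 17187 genes so filtered, 5919 were called toward V/SVZ and 7661 toward CP. With no filter, 15 of 42 collagen genes and 22 of 61 probes were called toward V/SVZ, and 13 genes and 19 probes toward CP. Of all 32520 genes, 6831 were called toward V/SVZ and 12413 toward CP. In the authors' deposited table, 13 of 16 collagen genes and 14 of 17 probes were called toward V/SVZ. Toward CP it called 2 genes and 2 probes. Of its 13450 genes, 5309 were called toward V/SVZ and 5951 toward CP. That table called 34 of 39 partner genes, against 56 of 69, and 11260 of 13450 genes in all, against 15298 of 19232. Leaving out each array in turn gave 14 to 15 genes and 19 to 20 probes higher in V/SVZ, 8 to 8 genes and 9 to 9 probes higher in CP, 55 to 58 partner genes and 14653 to 15400 genes in all.

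Same-numbered arrays deviated together with r of 0.339, 0.308, 0.098 and 0.204, and array V/SVZ 3 went best with CP 2. The numbers were therefore not taken as pairs in the main tests. The by-number comparison of Col1a2 to Col1a1 above is a description without a test. With the replicate number as a block, 14 collagen genes were higher in V/SVZ and 15377 genes were called in all, against 15298. Normexp dropped 52 tested probes without all 8 values. Signal over background limits the folds of Col22a1, Col4a5, Col14a1, Col27a1, Col9a1, Col4a4 and the second Col4a6 probe, whose CP signal was at or near background.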

Other observations

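Beside the collagens, markers of further cell types also differed between the layers. Of 13 microglia markers, 10 were called toward V/SVZ (35.0% of all genes), 1 toward CP (44.6%) and 2 were not called. Their median log2 difference was 2.0, with summed signals of 42668 to 54942 in V/SVZ and 33594 to 38735 in CP. P2ry12, a receptor of resting microglia, was 5.22-fold higher in V/SVZ. Itgam, the brightest probe of the list, was 1.76-fold higher in CP without overlap, and Aif1 was not called. Of 8 tested red blood cell markers, 7 were called toward V/SVZ (35.0% of all genes) and 1 was not called. Epor, the erythropoietin receptor, was 1.98-fold higher in V/SVZ. Of 9 choroid plexus markers only 3 were tested, Ttr and Kcne2 not among them; Aqp1, a water channel, was 2.17-fold higher in V/SVZ and the other 2 were higher in CP.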
